A study of Mus musculus with 238 samples.

Results

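The genes described here are 10 enzymes of serine synthesis and folate metabolism, out of 21076 gene rows in the count table: Phgdh, Psat1 and Psph, which make serine, Shmt1 and Shmt2, Mthfd1, Mthfd1l and Mthfd2, and Aldh1l1 and Aldh1l2. They were taken from the table by symbol, and all 10 had a row. The genes were chosen by their place in the pathway with earlier diet and plasma results from these same counts in view. Which measured values decided the choice is not recorded, so the diet and plasma differences below describe the members and are not independent evidence for them. The study sequenced mRNA from 15 brain regions of C57BL/6JN mice aged 19 months in a diet experiment on females and a plasma experiment on males. In the diet experiment 5 mice were dietary restricted (labelled aDR in brain and DR in liver) and 4 were fed ad libitum (AL). In the plasma experiment 3 mice received retro-orbital injections of plasma from young mice (YMP) and 4 received PBS. Liver was sequenced from the diet mice, as a check of the restriction. No transgene or deletion is named for any group, and the labels used here do not give the length or degree of restriction or the number of injections.

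Folate carries 1-carbon units between a cytosolic and a mitochondrial set of enzymes. As background, Phgdh, Psat1 and Psph convert a glycolytic intermediate to serine in 3 successive steps. Shmt1 in the cytosol and Shmt2 in mitochondria move a carbon from serine to tetrahydrofolate and release glycine. Mthfd2 and Mthfd1l act in mitochondria, Mthfd1l making the formate that leaves them, and Mthfd1 uses formate in the cytosol. Aldh1l1 in the cytosol and Aldh1l2 in mitochondria oxidise 10-formyltetrahydrofolate to carbon dioxide. In brain, Phgdh and Aldh1l1 are known as astrocyte-rich transcripts, and Aldh1l1 is a standard astrocyte marker. Several of these genes are known targets of ATF4, the transcription factor of the amino acid response.

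The upstream sequence of Mthfd1l is shown because this was the member whose level differed most clearly by diet. RefSeq (GRCm38.p6) gave windows of 250 bases before to 50 after a transcript start for 9 of the 10 members, 10 windows in all, but not for Aldh1l2. The 250 bases before the start at chr10:3972825-3973074, on the + strand and 5′ to 3′, carry in capitals ACGTCA, the reverse complement of TGACGT, a sequence bound by CREB and ATF proteins.

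Mthfd1l: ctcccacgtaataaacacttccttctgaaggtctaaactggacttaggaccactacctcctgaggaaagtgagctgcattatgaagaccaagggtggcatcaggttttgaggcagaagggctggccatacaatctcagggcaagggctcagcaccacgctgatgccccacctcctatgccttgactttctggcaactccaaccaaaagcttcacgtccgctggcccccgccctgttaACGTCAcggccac

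TGACGT was found at -13 relative to the start in Mthfd1l and at 7 in Psph, on either strand, and in no other member window. It was added to the search after the sequences had been seen, and 7.51% of 32851 RefSeq windows of the same length hold it. The composite C/EBP-ATF response element, searched as TGATGNAA on both strands, was in no member window and in 3.97% of all windows. The E-box CACGTG was likewise in no member window and in 7.15% of all windows. The gene itself lies on chromosome 10 from 3973118 to 4167081 in the GENCODE vM21 annotation of GRCm38, with 4.43 kb of exon, none of it shared with another gene.

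The table held 238 libraries: 131 brain and 9 liver libraries of the diet experiment and 98 brain libraries of the plasma experiment. Each region had 2 to 5 libraries a group. Totals ranged from 605614 to 32410417 counts with a median of 8444258, and 6 libraries were under 2000000. One library was unlike the rest of its region: in pons of aDR mouse 67, 10 genes took 23.4% of all counts. Libraries labelled choroid plexus held the epithelial marker list led by Ttr at summed levels of 151 to 15800 CPM, counts scaled to a common library size, with none of the 10 markers at 0. Libraries labelled corpus callosum ranged from 1.54 to 18200 CPM and those of the subventricular zone (SVZ) from 8.9 to 18900 CPM on that list. Neuronal markers summed to 6680 to 8090 CPM in the choroid plexus libraries of control mice, so these libraries also held neuronal RNA. The hepatocyte list summed to 134000 to 164000 CPM in the AL livers with no gene at 0.

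Brain and liver differed in which members were high. Per kb of exon, the highest member in brain was Phgdh, with a median over the 15 region means of 50 CPM per kb in AL mice, against 0.643 ± 0.15 (SD, n = 4) in AL liver. Psat1 stood at 29.3 CPM per kb in brain and 0.257 ± 0.122 in liver. Psph, the last enzyme of serine synthesis, was closer, at 6.98 and 2.98 ± 0.436 CPM per kb. All 3 serine-synthesis transcripts stood higher in brain than in liver on this scale.

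The cytosolic folate enzymes Aldh1l1, Shmt1 and Mthfd1, and the mitochondrial Shmt2, had the opposite distribution. Aldh1l1 reached 361 ± 102 CPM per kb in AL liver against a brain median of 14 CPM per kb. Shmt1 was at 122 ± 25.6 in liver and 0.865 in brain, the lowest brain median of the 10 members. Shmt2 was at 102 ± 11.4 in liver and 6.2 in brain, and Mthfd1 at 79.6 ± 18.4 and 13.2.

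The mitochondrial members Mthfd1l, Mthfd2 and Aldh1l2 were higher in brain than in liver. Their brain medians were 3.14, 4.42 and 0.995 CPM per kb, and their AL liver means were 0.363 ± 0.0525, 0.754 ± 0.277 and 0.106 ± 0.0763 CPM per kb. Shmt2, also mitochondrial, did not follow them.

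**Figure D1:**
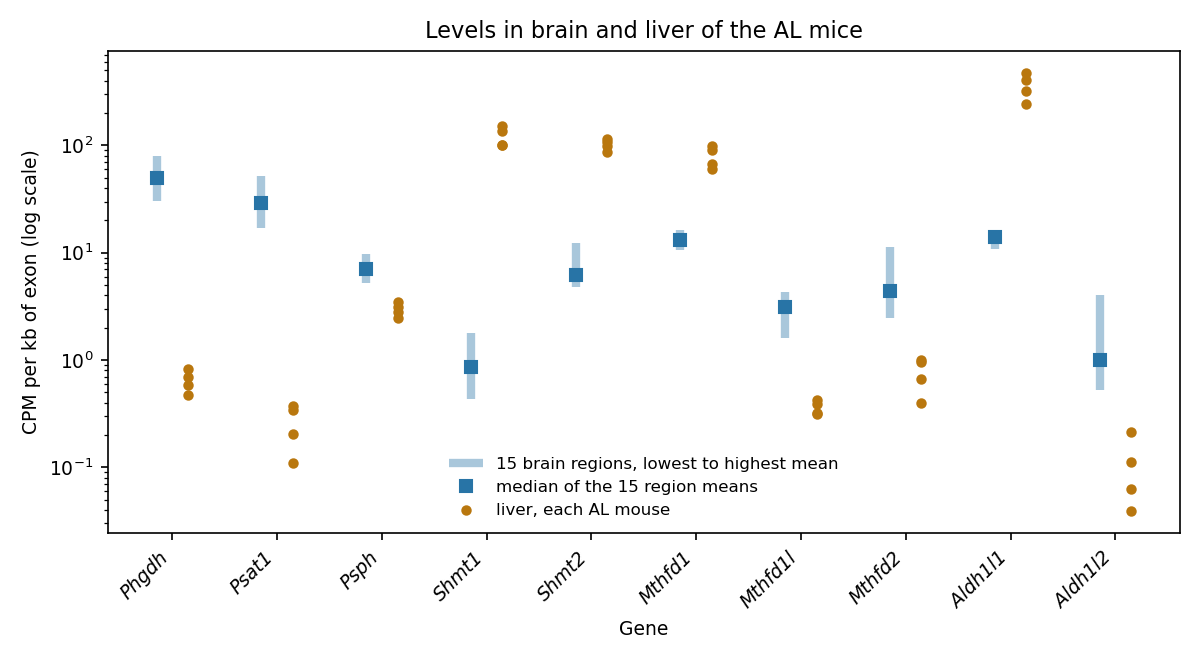
Levels of the 10 genes in AL mice, in CPM per kb of exon on a log axis. Bars span the lowest to the highest of the 15 brain region means, squares mark their median (Phgdh 50, Shmt1 0.865), and points are the 4 AL livers. Points of Shmt1, Shmt2, Mthfd1 and Aldh1l1 lie above their bars and those of the other members below.

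All 10 members differed between AL liver and the mean of the brain regions in limma's test with the mouse as a block and Benjamini-Hochberg adjustment, a comparison in which 89.4% of 15876 genes were called. On the log2 CPM scale (prior count 2), Shmt1 was higher in liver by 7.04 (SE 0.17, adjusted p = 2.78e-36), Aldh1l1 by 4.73 (SE 0.11), Shmt2 by 4.05 (SE 0.068) and Mthfd1 by 2.63 (SE 0.08). Psat1 had a log2 difference of -6.7 (SE 0.13), Phgdh of -6.11 (SE 0.085), Aldh1l2 of -3.18 (SE 0.16), Mthfd1l of -2.81 (SE 0.099), Mthfd2 of -2.71 (SE 0.14) and Psph of -1.14 (SE 0.081). Among these, Psat1, Phgdh, Mthfd1l, Mthfd2 and Aldh1l2 had only 1 to 22 counts in each AL liver library, so their fitted differences depend on the prior count. With so large a share of genes called, a call by itself sets no member apart.

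Ratios within single libraries gave the same picture for the paired enzymes. The Shmt2 level per kb divided by that of Shmt1 ran from 2.82 to 19.2 (median 7.1) in 58 AL brain libraries and from 0.752 to 0.984 in 4 AL livers. Aldh1l1 divided by Aldh1l2 had a median of 12.5 in AL brain and 4110 in AL liver, where Aldh1l2 had 1 to 10 counts. Phgdh divided by Psph had a median of 7.7 in AL brain and 0.206 in AL liver, where Phgdh had 5 to 11 counts. Mthfd1l divided by Mthfd2 had a median of 0.57 in AL brain and 0.516 in AL liver. The liver ratios ran from 0.322 to 0.786, on 6 to 9 counts of Mthfd1l and 6 to 22 of Mthfd2 a library. So few counts do not fix the liver ratio closely.

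Within the brain each member had its own regional order, which was similar in the separate AL females and PBS males. Pearson's r between the AL and PBS means over 15 regions was 0.97 for Aldh1l2, 0.96 for Psat1 and Mthfd2, 0.95 for Phgdh and Shmt1, and lowest for Aldh1l1 at 0.66. From the highest to the lowest region the log2 range in AL mice was 2.93 for Aldh1l2, 2.18 for Mthfd2, 1.94 for Shmt1, 1.61 for Psat1, 1.42 for Mthfd1l, 1.4 for Phgdh, 1.32 for Shmt2, 0.88 for Psph, 0.62 for Mthfd1 and 0.58 for Aldh1l1. Aldh1l1 was the flattest member, and none of its 14 neighbouring pairs of regions differed by more than the larger SD. For every member at most 4 of 14 neighbouring pairs did so in either control group.

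**Figure D2:**
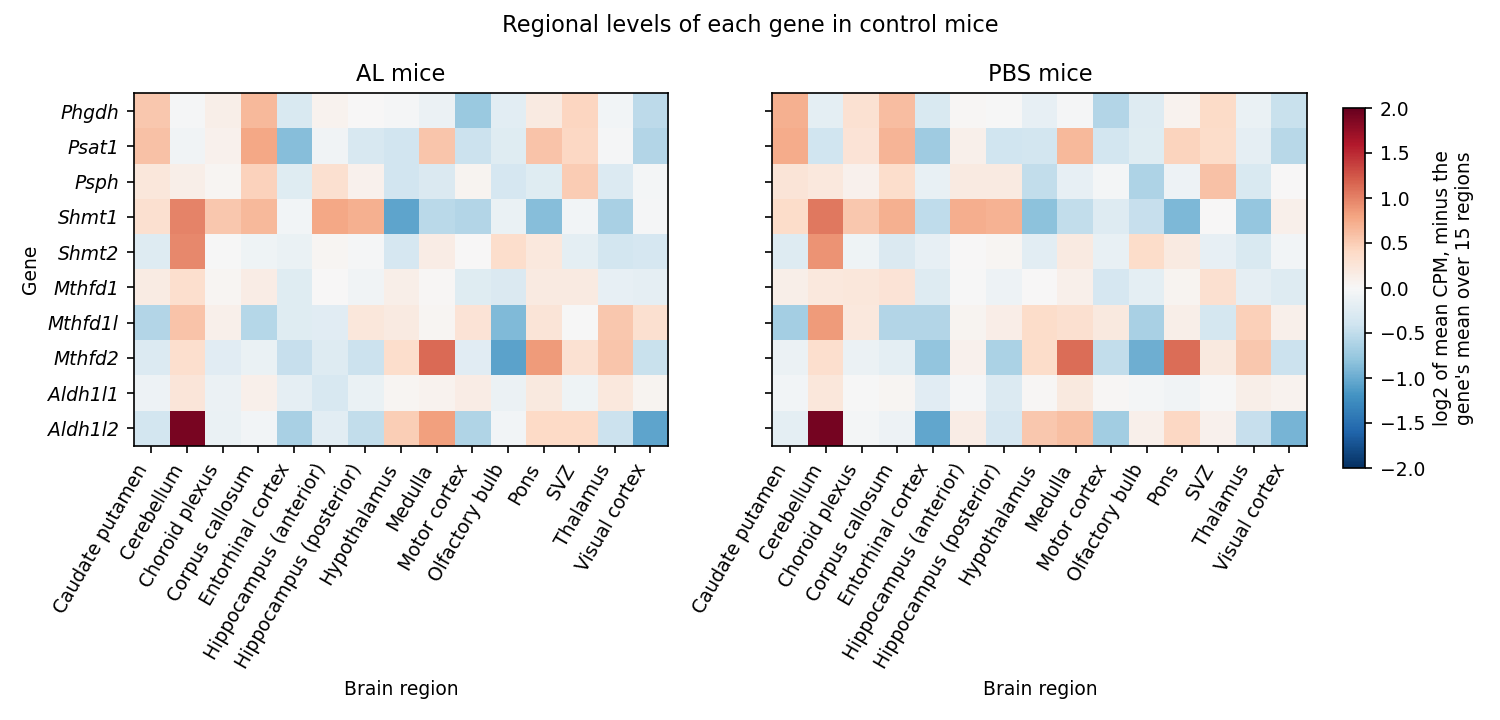
Regional pattern of each gene in control mice, AL on the left and PBS on the right. Colour is log2 of the mean CPM in a region minus the mean of that gene over the 15 regions. The 2 panels are alike, with Aldh1l2, Shmt2 and Shmt1 highest in cerebellum and Mthfd2 highest in medulla in both.

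By mean, Phgdh and Psat1 were highest in corpus callosum and caudate putamen and lowest in cortex. Psat1 was at 199, 215 and 255 CPM in the corpus callosum of 3 AL mice and at 68, 73.5 and 75.4 CPM in their entorhinal cortex, with no overlap. Phgdh was at 188, 201 and 203 CPM in AL corpus callosum and at 68.5, 71.6, 79.3 and 81.7 CPM in AL motor cortex, its lowest region. Corpus callosum and caudate putamen held the first and second rank for both genes in AL and in PBS mice, and did not differ beyond their spread. For Psat1, caudate putamen was not set apart from the brainstem. In AL mice it had 152, 181, 222 and 232 CPM, pons 181, 193, 199 and 199 CPM and medulla 175, 187, 195 and 206 CPM. In PBS mice caudate putamen had 185, 193, 210 and 296 CPM and medulla 193, 204, 211 and 220 CPM. Over the 15 regions the summed oligodendrocyte markers correlated with Psat1 at r = 0.94 and with Phgdh at r = 0.73, while astrocyte markers correlated at 0.3 and 0.19. Microglial markers correlated at 0.8 with both, above the oligodendrocyte value for Phgdh, and oligodendrocyte precursor markers at 0.92 with Psat1 and 0.68 with Phgdh. For Phgdh the choroid plexus and ependymal lists stood at 0.68 and 0.64. These correlations are descriptions over regions that share mice and libraries. In bulk tissue, more cells of a type and more RNA per cell cannot be told apart.

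Against the mean of the other 14 regions, corpus callosum had 5 members called in both experiments (limma, mouse as a block), where 31% of 15218 genes were called. Psat1 was higher by 0.87 (SE 0.11) in AL and 0.75 (SE 0.095) in PBS mice on the log2 scale, Phgdh by 0.73 (SE 0.093) and 0.68 (SE 0.09), Psph by 0.52 (SE 0.092) and 0.38 (SE 0.09), and Shmt1 by 0.71 (SE 0.2) and 0.78 (SE 0.19). All 3 serine-synthesis genes were higher there. Mthfd1l was lower, at -0.61 (SE 0.11) and -0.64 (SE 0.15). The largest of these adjusted p-values was 0.00423, for Shmt1 in AL mice. The corpus callosum libraries of PBS mice also held choroid plexus markers, at the summed levels given below for plasma. Over the regions that marker list correlated at 0.68 with Phgdh, 0.55 with Psat1, 0.53 with Psph, 0.41 with Shmt1 and -0.29 with Mthfd1l. The part of choroid plexus RNA in these differences was not tested.

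Cerebellum was the region of highest mean Aldh1l2, Shmt1, Shmt2, Mthfd1l and Aldh1l1 in both control groups. Mthfd1l in AL mice did not differ from thalamus, its neighbour in rank, beyond the spread. Aldh1l1 did not differ from its neighbour in either group. Shmt1 was at 6.84, 6.87, 6.93 and 7.05 CPM in AL cerebellum. AL anterior hippocampus (4.85, 4.89, 5.96 and 8.03 CPM) and posterior hippocampus (3.16, 3.99, 7.35 and 8.23 CPM) spanned ranges that contain these values. Aldh1l2 was at 28.5, 28.6, 32.3 and 32.7 CPM in AL cerebellum and at 2.41, 3.97, 4.33 and 4.98 CPM in AL visual cortex, its lowest region. Shmt2 was at 36.4, 36.5, 38.8 and 39.6 CPM in AL cerebellum. These 4 values lay close together, and the gap to olfactory bulb, which ranked second, was 0.59 on the log2 scale against a larger SD of 0.06.

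In cerebellum 5 members were called in both experiments, where 55% of genes were called. Aldh1l2 was higher than in the other regions by 1.99 (SE 0.13) in AL and 2.02 (SE 0.18) in PBS mice, Shmt1 by 1.01 (SE 0.18) and 1.05 (SE 0.19), Shmt2 by 0.98 (SE 0.065) and 0.94 (SE 0.091), Mthfd1l by 0.57 (SE 0.097) and 0.9 (SE 0.15), and Mthfd1 by 0.32 (SE 0.064) and 0.22 (SE 0.072). Mthfd1 lost its call when PBS mouse 84 was left out (adjusted p = 0.11). The serine-synthesis genes were not called in both groups: Psat1 differed by -0.11 (adjusted p = 0.29) in AL and by -0.46 (adjusted p = 8.2e-05) in PBS mice.

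The olfactory bulb was the region of lowest Mthfd2 in both control groups and of lowest Mthfd1l in AL mice. Mthfd2, highest in medulla at 34.2, 39.1, 40.9 and 45 CPM in AL mice, was at 7.33, 8.54, 9.07 and 9.69 CPM in AL olfactory bulb. There 7 members were called in both experiments, where 57.9% of genes were called. Mthfd2 was at -1.16 (SE 0.12) in AL and -1.06 (SE 0.15) in PBS mice, and Mthfd1l at -0.96 (SE 0.097) and -0.68 (SE 0.13). Psph was at -0.4 (SE 0.08) and -0.66 (SE 0.079), Mthfd1 at -0.35 (SE 0.064) and -0.23 (SE 0.062), Psat1 at -0.3 (SE 0.093) and -0.28 (SE 0.083), and Phgdh at -0.27 (SE 0.081) and -0.29 (SE 0.078). Phgdh lost its call with library totals in place of TMM (adjusted p = 0.0671). Shmt2 was the exception, higher by 0.34 (SE 0.065) and 0.39 (SE 0.079).

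Choroid plexus had 1 member called in both experiments, where 19.3% of genes were called. Shmt1 was higher by 0.56 (SE 0.18, adjusted p = 0.0141) in AL and 0.52 (SE 0.17, adjusted p = 0.0156) in PBS mice. It was at 3.76, 4.86, 5.2 and 6.49 CPM in AL choroid plexus. The call was lost without AL mouse 66 (adjusted p = 0.209) and without PBS mouse 80 (adjusted p = 0.191).

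Among 15628 genes compared over the 15 region means of control mice, those most like each member were found by Pearson's r, given as a description. Psat1 was matched most closely, by Enpp4 (0.986), Slc44a1 (0.97) and Olfml1 (0.97). Mthfd1l was nearest to Clstn3 (0.916), Kndc1 (0.914) and Arl4c (0.911), and Aldh1l2 to Cep120 (0.957), Tulp4 (0.936) and Mtm1 (0.931). Phgdh was nearest to Tm7sf3 (0.929), Ccl6 (0.916) and Pard3 (0.915), and Psph to Pantr2 (0.881), N4bp3 (0.843) and Prodh (0.818). Shmt1 was nearest to Dock4 (0.859) and Epn2 (0.849), and Shmt2 to Comp (0.95), Ccdc63 (0.933) and Ap1g2 (0.926). Mthfd1 was nearest to Hacl1 (0.915), Zfp438 (0.906) and Lpin3 (0.904), Mthfd2 to Bcap31 (0.951), Paip2 (0.945) and Fnta (0.939), and Aldh1l1 to Cgrrf1 (0.874), P2rx4 (0.869) and Ier3 (0.868). Between members the highest r was 0.81, for Phgdh with Psat1, and Aldh1l2 with Shmt2 stood at 0.75.

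Dietary restriction was compared first over the brain as a whole, with 1 value per mouse: the part of log2 CPM that belonged to the mouse after its regions were accounted for. Mthfd1l, the formate-producing mitochondrial enzyme, was the member that rose. The 5 aDR mice had values of 0.18, 0.21, 0.16, 0.19 and 0.05 and the 4 AL mice of -0.22, -0.19, -0.22 and -0.17. Every aDR mouse lay above every AL mouse, which 8.3% of all genes showed in either direction. The difference was 0.35 on the log2 scale (SE 0.036, limma adjusted p = 0.00619), a 1.28-fold higher level. It was the only member called, where 0.922% of 15616 genes were called. Its adjusted p over the mice left out in turn ran from 0.00187 to 0.0327.

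Shmt1, the cytosolic serine hydroxymethyltransferase, had mouse values of -0.02 to 0.3 in aDR mice (0.07 at the median) and of -0.33, -0.09, -0.08 and -0.07 in AL mice. These groups did not overlap either. The difference was 0.26 (SE 0.078), which did not pass the adjustment (limma adjusted p = 0.162). With single libraries as the units and the mouse as a replicate block it was 0.34 and passed (limma adjusted p = 0.00036), in a fit that called 1474 genes.

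Aldh1l2, the mitochondrial dehydrogenase of 10-formyltetrahydrofolate, had values of -0.24, -0.18, -0.16, -0.03 and 0.04 in aDR and of 0.03, 0.13, 0.15 and 0.25 in AL mice. Only the highest aDR mouse, 67, lay within the AL range. The difference was -0.25 (SE 0.065, limma adjusted p = 0.112). Without the pons library of aDR mouse 67 it was -0.29 and passed the test (limma adjusted p = 0.0435).

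The other 7 members did not pass. Psat1 was at 0.09 (95% interval 0 to 0.19, limma adjusted p = 0.293) and Mthfd2 at -0.09 (-0.24 to 0.05). Psph was at 0.04 (-0.04 to 0.13), Shmt2 at 0.03 (-0.03 to 0.09), Mthfd1 at 0.03 (-0.05 to 0.1), Aldh1l1 at 0.01 (-0.08 to 0.09) and Phgdh at 0 (-0.14 to 0.14). The median over all 10 members was 0.028 on the log2 scale, against -0.006 over all genes tested.

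**Figure D3:**
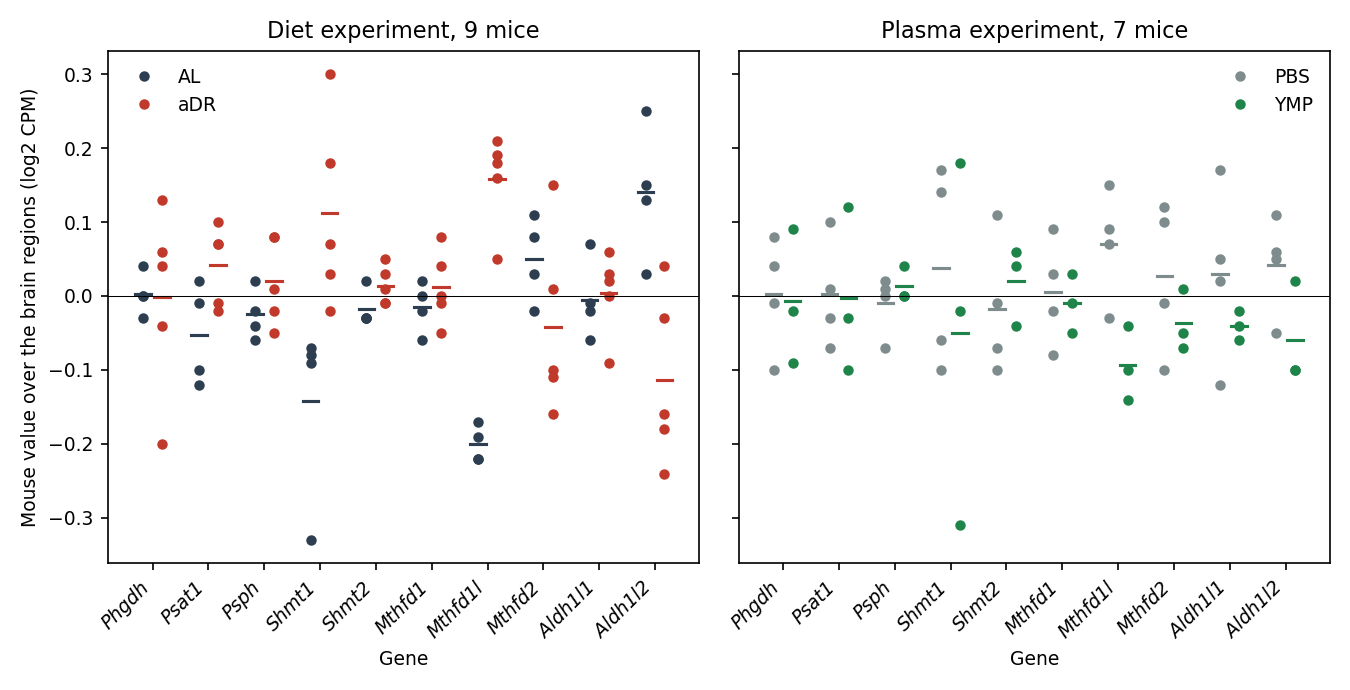
Values per mouse over the brain regions for each gene, on the log2 CPM scale and centred on each experiment. Points are mice and short lines group means. Mthfd1l of the aDR mice (0.05 to 0.21) lies above that of the AL mice (-0.22 to -0.17). In the plasma experiment it lies lower in YMP mice (-0.14 to -0.04) than in PBS mice (-0.03 to 0.15).

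Mthfd1l was higher with restriction in 14 of 15 regions, as were at least as many regions for 4.54% of the 12385 genes tested in every region. In 8 regions all aDR libraries lay above all AL libraries, which 0.121% of these genes showed in at least 8. The unadjusted p was under 0.05, in the higher direction, in 10 regions, which 0.299% of genes matched or exceeded. No region passed the adjustment over all genes: the lowest adjusted p was 0.0565, in visual cortex (edgeR's quasi-likelihood test).

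The separate regions were olfactory bulb, visual cortex, cerebellum, entorhinal cortex, corpus callosum, caudate putamen, anterior hippocampus and medulla. In corpus callosum the aDR mice had 12.9, 14.8, 15.6 and 15.9 CPM and the AL mice 7.26, 7.91 and 10.9 CPM. The log2 fold change of 0.73 there was the largest of the 15. In entorhinal cortex the aDR mice had 15.9, 16.9, 17, 17.8 and 19.8 CPM and the AL mice 9.84, 11.2 and 11.6 CPM, a log2 fold change of 0.68.

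In olfactory bulb, where Mthfd1l was lowest in AL mice, the 5 aDR mice had 10.2, 10.2, 10.6, 11.1 and 11.6 CPM and the 4 AL mice 5.9, 6.57, 7.3 and 8.41 CPM. The groups were apart by more than the range of the aDR mice, with a log2 fold change of 0.6 (edgeR adjusted p = 0.0925). In visual cortex the aDR mice had 20.7, 22.6, 23, 25 and 26.5 CPM and the AL mice 12.2, 15.7, 16.8 and 20.1 CPM, a log2 fold change of 0.54. In cerebellum, the region of its highest level, aDR mice ranged from 23.7 to 29.5 CPM and AL mice from 17.1 to 23 CPM.

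The groups overlapped in the other 7 regions. In thalamus aDR mice had 19.1 to 23.9 CPM and AL mice 18 to 19.3 CPM, and in posterior hippocampus 13.6 to 17.3 and 13.8 to 17.5 CPM. Pons was the region with a lower mean, at -0.09 (SE 0.25). There aDR mouse 67, in the library that stood apart, had 6.84 CPM and the other aDR mice 13.8, 16.8, 17.2 and 17.4 CPM, against 11.9, 15.1, 15.8 and 19.4 CPM in AL mice. Without that mouse the pons value was 0.07, and without AL mouse 66 it was 0.03.

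**Figure D4:**
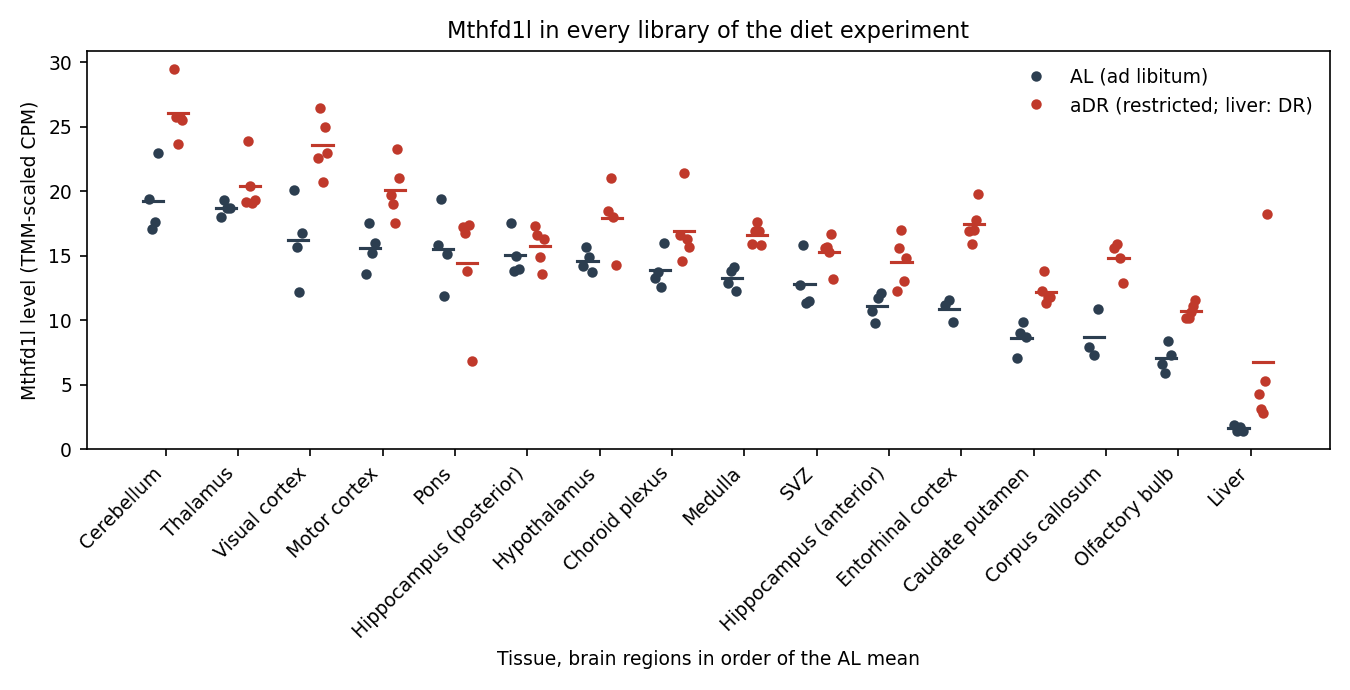
Mthfd1l in TMM-scaled CPM in every library of the diet experiment, by tissue. Points are libraries (1 a mouse), lines group means, dark for AL and red for restricted mice. Red points lie above all dark points in 8 brain regions and in liver, where 1 restricted mouse reached 18.2 CPM. Nothing is read from the liver separation, since Mthfd1l passed the filter there through the DR livers alone.

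Whether diet differences varied between regions was asked by testing all region by diet terms at once in edgeR, where 0.0128% of 15616 genes were called. Mthfd1l had F = 2.99 and an unadjusted p of 0.000681, and did not pass (adjusted p = 0.683). No other member had an unadjusted p under 0.05. The lowest of them was 0.222, for Aldh1l2. This test, and the region by plasma test below, took libraries as the units with no term for the mouse.

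Shmt1 was higher with restriction in 15 of 15 regions, which 1.69% of genes were. Its log2 fold change ran from 0.06 in choroid plexus to 0.64 in hypothalamus, with a median of 0.35. The levels were low: in hypothalamus aDR mice had 1.98, 2.29, 2.75 and 3.68 CPM and AL mice 1.43, 1.47, 1.7 and 2.09 CPM, from 9 to 48 counts a library. The groups were separate in corpus callosum alone, where aDR mice had 6.29 to 7.44 CPM and AL mice 4.29 to 6.22 CPM. How many of all genes were separate in a single region is not given here, so nothing is read from this.

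Aldh1l2 was lower in 13 of 15 regions, as were at least as many for 6.35% of genes. In caudate putamen aDR mice had 3.09, 3.88, 4.06, 4.09 and 4.87 CPM and AL mice 5.01, 5.18, 7.05 and 8.17 CPM. All aDR libraries lay below all AL libraries there, with a log2 fold change of -0.65 (SE 0.2, edgeR adjusted p = 0.618). As for Shmt1, nothing is read from a separation in a single region. In pons the mean was higher by 0.72 (SE 0.63), where the library of aDR mouse 67 had 51.1 CPM and the other aDR libraries 3.81 to 14.4 CPM.

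**Figure D5:**
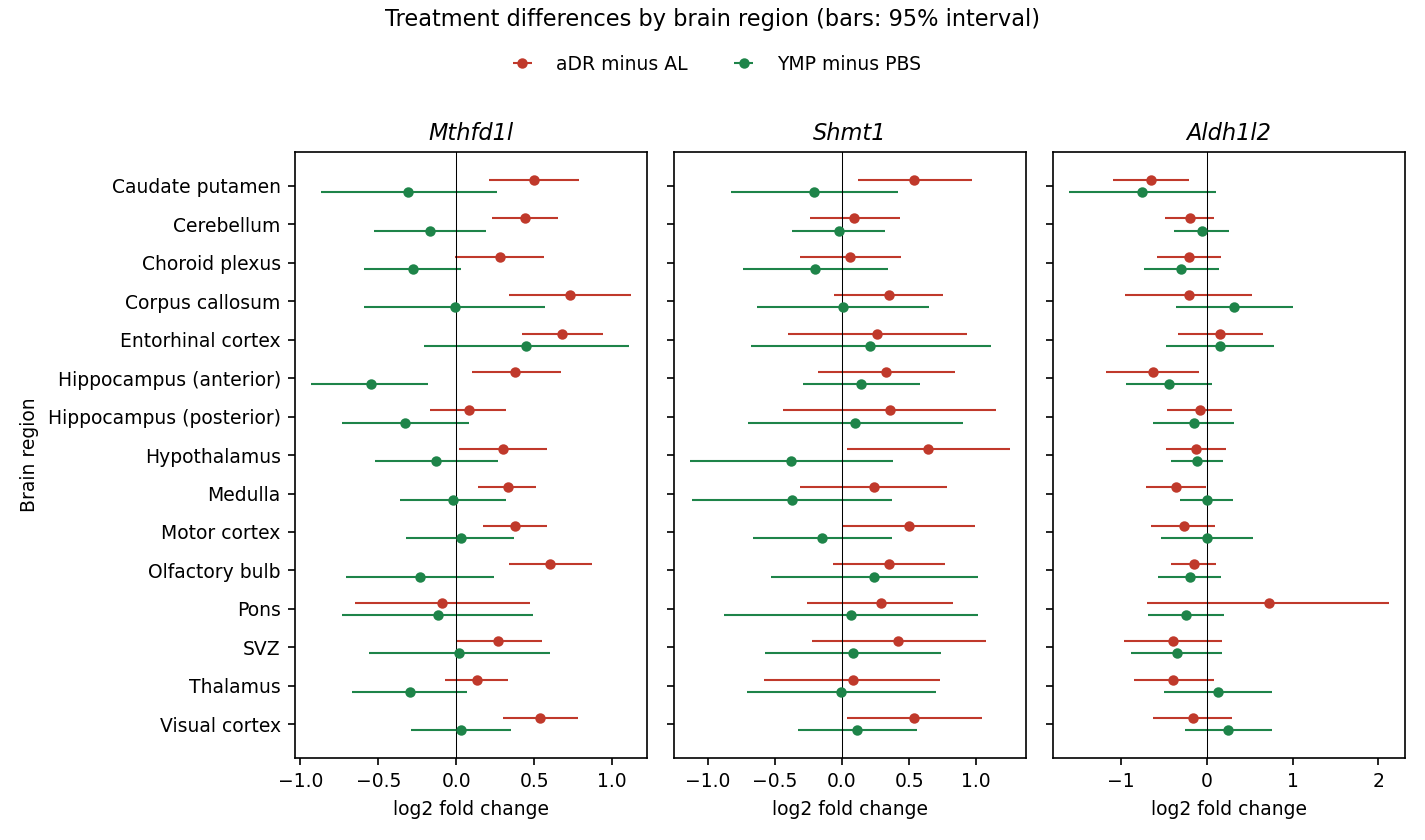
log2 fold changes with 95% intervals for Mthfd1l, Shmt1 and Aldh1l2 in each brain region, red for aDR minus AL and green for YMP minus PBS. Red Mthfd1l points run from -0.09 in pons to 0.73 in corpus callosum. All red Shmt1 points are above 0, and 13 red Aldh1l2 points are below 0.

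Tissue by tissue, no member was called by edgeR in any of the 16 tissues, in 156 tests of a member in a tissue. Unadjusted p-values under 0.05 numbered 22 (14.1%), against 6.4% of all tests of all genes. Leaving out Mthfd1l and liver, they numbered 11 of 135 (8.1%). DESeq2 called Mthfd1l in cerebellum, olfactory bulb and visual cortex, where it called 1.28%, 0.882% and 0.352% of all genes with an adjusted p, and 0.352% over the 16 tissues. It also called Mthfd1l in liver, where it called 1.9% of genes and where the filter limits the result as described below. It called no other member with diet. The share of all genes called by edgeR, in place of DESeq2, was 0.251% in motor cortex, 0.22% in olfactory bulb and in liver, 0.202% in visual cortex, 0.0524% in cerebellum, 0.0215% in corpus callosum, 0.00707% in choroid plexus, 0.0146% in caudate putamen, 0.0212% in SVZ, 0.00714% in medulla and 0% in the other 6 regions.

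In liver only 6 members passed the filter on low counts. Mthfd1l was at 2.8, 3.09, 4.3, 5.29 and 18.2 CPM in the 5 DR mice and at 1.4, 1.42, 1.74 and 1.87 CPM in the 4 AL mice, from 11 to 85 and from 6 to 9 counts. All DR mice lay above all AL mice, and mouse 67 was far above the rest. Mthfd1l passed the filter through the DR livers alone: 5 of 5 DR and 0 of 4 AL libraries reached its limit of 1.35 CPM. That limit is in CPM on library totals without TMM factors, so it cannot be set against the TMM-scaled levels above. A gene entering in this way had to differ, and nothing is read from the separation. The log2 fold change was 2.1 (SE 0.61, edgeR adjusted p = 0.238), 1.22 without mouse 67 (adjusted p = 0.187) and 2.09 with no filter (adjusted p = 0.229). The groups of the other 5 overlapped: Shmt1 was at -0.12 (95% interval -0.49 to 0.25), Psph at -0.21 (-0.71 to 0.29), Shmt2 at 0.05 (-0.29 to 0.39), Mthfd1 at -0.05 (-0.47 to 0.37) and Aldh1l1 at 0.01 (-0.54 to 0.56). Phgdh, Psat1, Mthfd2 and Aldh1l2, with 0 to 22 counts a liver library, were not tested.

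The diet difference in liver was set against that in brain of the same mice with limma. None of the 6 members tested was called, where 0.0881% of 11350 genes were called, and 2 had an unadjusted p under 0.05. Mthfd1l, which entered this comparison through the DR livers alone, had a value larger in liver by 1.13 (SE 0.46, adjusted p = 0.551), or by 0.67 without mouse 67. Shmt1 was smaller in liver by a log2 difference of -0.37 (SE 0.16, adjusted p = 0.594).

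Young plasma was compared in the same way over the brain. No member was called by limma, where 0% of 15768 genes were called and 1275 genes had an unadjusted p under 0.05. Mthfd1l had mouse values of -0.14, -0.1 and -0.04 in YMP and of -0.03, 0.07, 0.09 and 0.15 in PBS mice. The groups did not overlap, as for 10.1% of all genes, and nearly touched. The difference was -0.16 (SE 0.055, adjusted p = 0.511), and Mthfd1l was the only member with an unadjusted p under 0.05. The next were Aldh1l2 at -0.1 (95% interval -0.23 to 0.02), Shmt1 at -0.09 (-0.38 to 0.2), Mthfd2 at -0.07 (-0.21 to 0.08) and Aldh1l1 at -0.07 (-0.23 to 0.09). Shmt2 was at 0.03 (-0.11 to 0.18), Psph at 0.02 (-0.07 to 0.12), Mthfd1 at -0.01 (-0.14 to 0.11), Phgdh at -0.01 (-0.15 to 0.14) and Psat1 at -0.01 (-0.17 to 0.16). The median over the 10 members was -0.04, against -0.004 over all genes.

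Region by region, no member was called with plasma by edgeR or by DESeq2, in 150 edgeR tests of which 7 (4.7%) had an unadjusted p under 0.05, against 6.1% for all genes. The share of all genes called was 0.184% in corpus callosum, 0.00738% in cerebellum and 0% in the other 13 regions. Mthfd1l was lower in 11 of 15 regions, from -0.55 in anterior hippocampus to 0.45 in entorhinal cortex. In anterior hippocampus YMP mice had 7.2, 8.32 and 8.75 CPM and PBS mice 8.76, 12.2, 12.6 and 12.7 CPM, so the groups were barely separate. They were also barely separate in choroid plexus, at 9.26, 11.2 and 11.4 CPM against 11.5, 12.9, 13.5 and 13.8 CPM. The share of all genes separate in single regions with plasma is not given here, so nothing is read from these separations.

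Psat1 and Phgdh had plasma values of both signs over the regions. The log2 fold change of Psat1 ran from -0.44 in caudate putamen to 0.34 in corpus callosum, where 2 YMP mice had 271 and 280 CPM and 3 PBS mice 194, 212 and 226 CPM. That of Phgdh ran from -0.34 to 0.34 in the same regions, with 229 and 278 CPM in YMP and 190, 194 and 198 CPM in PBS corpus callosum. The region by plasma test called 0.824% of genes and no member: Psat1 had an adjusted p = 0.794 and Phgdh an adjusted p = 1. Choroid plexus epithelial markers moved with the plasma groups in the same libraries. All 10 of 10 were lower over the brain in YMP mice, by a mean log2 difference of -1.7, and their mouse values did not overlap (-1.32 to -0.58 against 0.24 to 1.54). In corpus callosum they summed to 1.54 to 8.78 CPM in YMP mice and 5120 to 18200 CPM in PBS mice. Astrocyte markers were lower by 0.08 with no overlap, 9 of 12 of them lower. The hepatocyte list, which shares Ttr with the choroid plexus list and had 2 genes tested, differed by -1.83 with no overlap, both genes lower. The oligodendrocyte list differed by -0.14 with overlap, 10 of 10 genes lower. The part of these marker differences in the values of the members was not tested.

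With diet, mouse values of every marker list overlapped between aDR and AL mice. Astrocyte and neuron lists differed by 0 and the oligodendrocyte list by 0.07. The blood list was higher by 0.74 with 5 of 5 genes higher. The endothelial list was lower by 0.12 with 3 of 8 genes called, where 0.922% of all genes were called. Their part in the Mthfd1l difference was not tested.

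Other genes of the pathway were followed in 5 lists. Over the brain with diet, 1 gene of all lists was called by limma, where 0.922% of 15616 genes were called. A single call does not set the lists apart from that share. Cebpb, a C/EBP transcription factor in the list of ATF4 targets and regulators, rose by 0.27 (SE 0.048, adjusted p = 0.0393). The call was lost with library totals in place of TMM (adjusted p = 0.0504) and without aDR mouse 61, 64 or 65 or any single AL mouse, where the highest adjusted p was 0.116. In that list 8 of 19 genes tested were higher and 11 lower, with a median of -0.028. Slc3a2 at 0.1 (adjusted p = 0.0976) and Slc7a5 at 0.11 (adjusted p = 0.132), which together form an amino acid transporter, and Stc2 at -0.3 (adjusted p = 0.251) had a limma p under 0.05 before adjustment only, as did Sesn2 at 0.11 (adjusted p = 0.231). Slc3a2 (adjusted p = 0.000147) and Slc7a5 (adjusted p = 0.0465) passed in limma's fit over libraries with the mouse as a replicate block. That fit uses more units than mice and called 1474 of all genes, where the test over mice called 144. A pass in it is therefore weaker evidence than a call over mice.

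Of the methionine cycle and transsulfuration list, 11 of 15 genes tested were higher, with a median of 0.094, and none was called. Mat2b at 0.09 (adjusted p = 0.157) and Mat2a at 0.09 (adjusted p = 0.27), subunits of the enzyme that makes S-adenosylmethionine, Ahcy at 0.11 (adjusted p = 0.224) and Gamt at -0.15 (adjusted p = 0.116) had a limma p under 0.05 before adjustment only. With the replicate block Ahcy (adjusted p = 0.00587), Mat2b (adjusted p = 0.00793) and Mat2a (adjusted p = 0.0242) passed limma's test. This is the fit over libraries that called 1474 of all genes, and the same limit holds for every pass in it. Of other folate enzymes and transporters 9 of 15 were higher, with Fpgs, which adds glutamates to folate, at 0.14 (adjusted p = 0.218). Of the glycine cleavage and transport list 7 of 14 were higher, with Sfxn2 at 0.22 (adjusted p = 0.188) and the transporter Slc1a4 at -0.12 (adjusted p = 0.173), both of which passed limma's test with the block (adjusted p = 0.0035 and 0.0226). Of the choline oxidation list 3 of 5 were higher and none had an unadjusted p under 0.05.

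With plasma no gene of the 5 lists was called. Those with a limma p under 0.05 before adjustment only were Bhmt, which remethylates homocysteine from betaine, at -0.76 (adjusted p = 0.335), Gnmt at -0.62 (adjusted p = 0.467), Dmgdh at -0.43 (adjusted p = 0.484), Chdh at -0.21 (adjusted p = 0.484), the glycine transporter Slc6a9 at -0.2 (adjusted p = 0.386), Ggh at -0.18 (adjusted p = 0.525) and Folr1 at -0.89 (adjusted p = 0.567). Folr1 is itself one of the choroid plexus markers above. With the mouse as a replicate block Bhmt was at -1.78 (adjusted p = 0.0113), Folr1 at -3.13 (adjusted p = 3.6e-06) and Chdh at -0.37 (adjusted p = 0.0186), and passed limma's test. That fit uses more units than mice and called 486 of all genes, where the test over mice called 0 of 15768. The part of the choroid plexus marker difference in the values of Bhmt and Chdh was not tested. Of the folate list 4 of 15 were higher, of the methionine list 7 of 16, of the choline list 1 of 5, of the glycine list 7 of 14 and of the ATF4 list 6 of 19, with medians of -0.077, -0.053, -0.129, -0.025 and -0.058.

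Part of the counts of some members cannot be assigned with certainty, since the libraries were unstranded and the exons of 6 members overlap another gene. The overlap is 1056 bases of Aldh1l2 with D10Wsu102e, 604 of Aldh1l1 with Gm15756 and Gm45901, 452 of Psph with Cct6a, 184 of Shmt1 with Smcr8, 37 of Mthfd1 with Gm47525 and 32 of Shmt2 with Ndufa4l2. Phgdh has 1 named pseudogene. Mthfd1l, Mthfd2 and Psat1 have neither.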

How the data were processed

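Bulk mRNA libraries were made with Smart-Seq2 cDNA and Nextera XT from homogenised tissue and were unstranded, per the labels. The authors deposited whole-number read counts per gene. Per the submitters' processing notes, Trim Galore 0.3.7, STAR 2.5.3a, DESeq2 and the build GRCm38 were used, and the counting program and annotation are not given in the sources used here. Reads carry no molecular identifiers, so counts are not independent molecules.

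The deposited counts were analysed with edgeR 4.0.16 (TMM; filterByExpr, min.count 10, min.total.count 15) within each tissue and for region by treatment terms, and with limma 3.58.1 on log2 CPM (prior count 2) over mice and between tissues, in R 4.3.3. DESeq2 1.42.0 served as an alternative. Genes were called at a Benjamini-Hochberg adjusted p under 0.05 over all genes tested. A region was called against the other 14 only when this held in AL and in PBS mice with the same sign. A mouse was the replicate within each tissue and in the tests over mice. Contrasts between tissues used libraries with the mouse as a block. The region by treatment tests used libraries with no term for the mouse. Levels are CPM with TMM factors over all 238 libraries, divided where stated by the GENCODE vM21 exon length. Intervals are 95%, from the fits.

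The members and all lists were chosen with earlier results of these data known. Named were all members, every list gene called by treatment, up to 3 per direction and list with the smallest unadjusted p under 0.05 over the brain, and the 3 genes most like each member. One gene that this rule names is not reported here. Libraries of the same mouse shared deviations only weakly: the mean correlation of their deviations was 0.04 against -0.005 between mice in the diet and 0.072 against -0.012 in the plasma experiment. The pairing comes from the mouse numbers in the labels. Of 357 replicate pairs none had counts within sampling noise (smallest chi-square per degree of freedom 1.29). The tests were also run on simulated counts, drawn with no deviation shared by libraries of the same mouse. Those runs therefore cannot show how the tests over mice behave when such deviation is present. Alternatives were other normalizations, filters, prior counts, units of the test and leaving out each mouse.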

Additional observations from a re-analysis of the deposited data

Results flagged for a closer look

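In 7 of 87 groups of 4 or 5 values, the highest or lowest lay further from its neighbour, relative to the range of the group, than 95% of such groups would by chance. About 1 group in 20 is expected to do so, or 4.3 here.

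In the liver of DR mice Mthfd1l was at 18.2 CPM in mouse 67 and at 2.8 to 5.29 CPM in the other 4. In thalamus aDR mouse 62 had 23.9 CPM of Mthfd1l and the other aDR mice 19.1 to 20.4 CPM. In medulla PBS mouse 76 had 17.4 CPM and the others 12.7 to 13.1 CPM, and in olfactory bulb the same mouse had 8 CPM and the others 6.71 to 6.88 CPM. In anterior hippocampus PBS mouse 80 had 8.76 CPM, in a library of 1957388 counts, and the others 12.2 to 12.7 CPM.

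Over the brain regions the Shmt1 value of AL mouse 66 was -0.33, against -0.09 to -0.07 in the other AL mice. The Shmt2 value of AL mouse 63 was 0.02, against -0.03 in each of the others. Mouse values were compared as rounded here, so the tie among the others, and with it the Shmt2 flag, may come from rounding.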

How the results depend on the processing

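Of 41 counts of members called, 34 stayed within 1.5 times their value under every alternative run, and of 120 single-gene values 75 kept their direction and their side of the threshold. Mthfd1l over the brain with diet stayed called under all 17 alternatives. The count of members called there was 2 with the mouse as a replicate block over libraries (adding Shmt1), 3 with no replicate block (adding Shmt1 and Aldh1l2) and 2 without the pons library of aDR mouse 67 (adding Aldh1l2). The block called no member with plasma. Over all genes, 144 calls with diet became 1474 with the replicate block, 2760 without it and 14 to 163 with 1 mouse left out, 14 of them without AL mouse 66. With plasma, 0 became 486, 2629 and 0 to 1. These library-level fits use more units than mice. Within tissues, DESeq2 called 1 member (Mthfd1l) with diet in cerebellum (adjusted p = 0.0231), liver (0.0276, where the DR livers alone carried it through the filter), olfactory bulb (0.0309) and visual cortex (0.0252), and leaving out the filter called 1 in visual cortex (0.0144). Leaving out single mice gave 0 to 1 in visual cortex (1 without AL mouse 63, adjusted p = 0.0272), in motor cortex (1 without aDR mouse 64, 0.0449) and for choroid plexus against the other regions. The cause of these changes was not tested.

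Values that changed sign were not called, and with 1 mouse left out several of them ranged well away from 0. Phgdh with diet was 0 without choroid plexus and corpus callosum and 0.02 without the pons library, and Aldh1l1 was -0.01 with library totals. With plasma, Psat1 was 0 with no replicate block, Shmt2 0 with the block, Mthfd1 0 without choroid plexus and corpus callosum, and Mthfd1l 0.01 in corpus callosum with library totals. With 1 mouse left out, diet values ran from -0.04 to 0.05 for Phgdh, -0.01 to 0.03 for Aldh1l1 and -0.19 to 0.07 for Mthfd1l in pons. Plasma values over the brain ran from -0.06 to 0.04 for Phgdh, -0.07 to 0.04 for Psat1, 0 to 0.03 for Psph, -0.2 to 0.05 for Shmt1 and -0.05 to 0.02 for Mthfd1. Those of Mthfd1l ran from -0.1 to 0.08 in corpus callosum, -0.22 to 0.02 in hypothalamus, -0.13 to 0.07 in medulla, -0.04 to 0.13 in motor cortex, -0.44 to 0.04 in pons, -0.17 to 0.15 in SVZ and -0.07 to 0.13 in visual cortex. Low counts limit 4 members in liver (22 or fewer a library) and Shmt1 in several brain libraries.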
